A study of Mus musculus with 8 samples.

Results

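The transcripts of 28 enzymes of the tricarboxylic acid (TCA) cycle, of the reactions that feed it and drain it, and of the pentose phosphate pathway were followed in cultured mouse fibro-adipogenic progenitors (FAPs). The genes were taken as a list of symbols, and each was matched by its Ensembl identifier in GENCODE M21. All 28 were found among the 20781 genes of the count table, and all 28 were among the 16565 genes with enough counts to be tested. FAPs lie between the fibres of muscle, where they give rise to fat cells and to fibroblasts that lay down matrix. Per the labels, the cells came from leg muscles without injury (quadriceps, gastrocnemius and tibialis anterior) of wild-type male C57BL/6J mice (given as C57BL/6 elsewhere in the labels), although the extraction protocol names another muscle, longissimus dorsi. After 48 h in culture, they were kept for 24 h with vehicle (4 libraries, biological replicates) or with melatonin (4 libraries, biological replicates). The sources used here give neither the dose, nor what the vehicle was, nor the age and number of mice behind a replicate.

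The TCA cycle burns acetyl units in the mitochondrial matrix and passes their electrons as NADH to the respiratory chain, while citrate and malate leave it for lipid synthesis and for the shuttles that move reducing power across the inner membrane. The pentose phosphate pathway runs in the cytosol. Its oxidative branch makes NADPH from glucose 6-phosphate, and its non-oxidative branch exchanges sugar phosphates with glycolysis and supplies ribose for nucleotides. Fat cells draw on both pathways, since fatty acid synthesis needs exported citrate and NADPH.

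With melatonin, 8 of 14 TCA cycle transcripts rose, and of 7 pentose phosphate transcripts 2 rose and 1 fell. Both the 14 and the 8 include Aco1, whose product is the cytosolic aconitase. Citrate synthase (Cs), mitochondrial isocitrate dehydrogenase (Idh2), the catalytic subunit of the NAD-dependent isocitrate dehydrogenase (Idh3a), fumarase (Fh1) and malate dehydrogenase (Mdh2) were among those that rose, and 0 of 14 fell. Of the 28 enzymes together 14 rose, 2 fell and 12 did not pass the test (edgeR quasi-likelihood test, Benjamini-Hochberg adjusted p under 0.05 over all tested genes). Among all tested genes 36.5% passed, 18.1% as higher and 18.5% as lower. The log2 fold changes, melatonin over vehicle, ran from -0.33 to 0.75. The median was 0.23, beside 0.01 over all tested genes. Vehicle and melatonin libraries did not overlap for 21 enzymes, 16 higher with melatonin and 5 lower, and the same held for 37.7% of all tested genes.

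Levels are in CPM, counts relative to a library size scaled by the trimmed mean of M-values (TMM), given for replicates 1 to 4 of each group or as mean ± SD with n = 4, vehicle first. Each log2 fold change is melatonin over vehicle ± its standard error. Library totals were 35584931 to 52401153 counts. Small differences depended on the scaling. With library totals alone in place of TMM, the median log2 fold change of all tested genes moves from 0.01 to 0.17, the share of higher genes among those that passed goes from 49.4% to 69.5%, and 18 of the 28 enzymes pass as higher and 0 as lower. Melatonin replicate 4 stood apart from the other melatonin libraries (chi-square per gene 50.9 to 65.1 against each of them, and 20.7 to 28.4 among the other 3). Without it, 15 of the 28 enzymes rose and 2 fell.

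The labelled cell type was checked by its markers. The FAP marker Pdgfra stood at 508 to 630.5 CPM with vehicle and 354 to 509 CPM with melatonin and did not pass. Of 8 FAP and fibroblast markers, 5 fell and 1 rose (Gsn), while Cd34, like Pdgfra, did not pass. Their sum, most of it Col1a1 and Col3a1, went from 26603 to 31626 CPM to 13793 to 16383 CPM. The satellite cell and myoblast markers Myod1, Myog and Des summed to 44.6 to 61.4 CPM and 25.6 to 96.2 CPM, and 0 of 3 passed. Pax7 and Myf5, also listed for these cells, were not among the genes of the count table. The lowest total of any gene in that table was 11 counts. The 6 adipocyte markers (Adipoq, Plin1, Fabp4, Cidec, Lipe and Pparg) all rose, from 132 to 137 CPM in sum with vehicle to 736 to 935 CPM with melatonin. The 8 macrophage markers summed to 463 to 716 CPM and 328 to 618 CPM, most of it Lyz2, with 3 higher (C1qa, C1qb and C1qc) and 1 lower (Csf1r). The 4 endothelial markers summed to 26.6 to 33.2 CPM and 45.1 to 53.2 CPM. Of these, Tek rose from a mean of 17.1 to 35.3 CPM, and Pecam1, Cdh5 and Kdr did not pass. The 4 pericyte and smooth muscle markers summed to 42.7 to 53.7 CPM and 38.8 to 49.8 CPM (Rgs5 lower). Genes of the mitochondrial genome took 1.05% to 1.301% of counts with vehicle and 2.09% to 2.44% with melatonin. The part of these markers in the enzyme differences was not tested. In bulk RNA, more cells of one kind and more RNA per cell cannot be told apart.

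To show the regulatory sequence beside the data, the 250 bases before the annotated start are printed for 4 genes whose window holds a match to a motif of a factor with a textbook role in these pathways, 3 of them genes that rose (Idh3g, Ogdh and G6pdx) and 1 that did not pass (Dlst). They are from RefSeq promoter windows on GRCm38.p6, written 5′ to 3′ on the strand of the gene, with matches in capitals. Idh3g lies at chrX:73786898-73787147, minus strand, Ogdh (1 of its annotated starts) at chr11:6292308-6292557, plus strand, Dlst at chr12:85110583-85110832, plus strand, and G6pdx at chrX:74428881-74429130, minus strand.
Idh3g: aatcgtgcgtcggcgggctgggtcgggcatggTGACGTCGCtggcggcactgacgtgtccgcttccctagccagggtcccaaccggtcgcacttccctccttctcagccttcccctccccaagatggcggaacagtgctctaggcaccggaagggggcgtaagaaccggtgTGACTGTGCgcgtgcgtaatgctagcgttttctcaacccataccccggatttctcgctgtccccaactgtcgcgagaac
Ogdh: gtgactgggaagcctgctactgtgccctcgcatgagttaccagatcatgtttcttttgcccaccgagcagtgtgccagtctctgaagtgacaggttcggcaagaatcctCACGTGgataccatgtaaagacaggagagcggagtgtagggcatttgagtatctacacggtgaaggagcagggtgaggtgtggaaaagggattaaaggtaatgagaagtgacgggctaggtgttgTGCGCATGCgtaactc
Dlst: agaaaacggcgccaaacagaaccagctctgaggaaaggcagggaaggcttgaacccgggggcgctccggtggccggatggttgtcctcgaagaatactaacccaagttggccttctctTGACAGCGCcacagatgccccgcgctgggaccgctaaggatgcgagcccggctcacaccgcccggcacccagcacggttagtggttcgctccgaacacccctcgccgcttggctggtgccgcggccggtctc
G6pdx: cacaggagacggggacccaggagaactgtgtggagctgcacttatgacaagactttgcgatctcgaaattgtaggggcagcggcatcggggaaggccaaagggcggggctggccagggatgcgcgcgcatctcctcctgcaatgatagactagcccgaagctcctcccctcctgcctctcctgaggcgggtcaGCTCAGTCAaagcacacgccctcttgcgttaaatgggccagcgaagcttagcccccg

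Windows from 250 bases before to 50 after the start were found for 26 of the 28 enzymes. The core of the antioxidant response element, TGACNNNGC, to which NRF2 binds, was searched on both strands and was in the window of 6 of 26 enzymes (Idh3g, Dlst, Sucla2, Mdh1, G6pdx and Pgd) and of 14% of all genes. Those 6 enzymes include 3 that rose (Idh3g, Mdh1 and G6pdx), 1 that fell (Pgd) and 2 that did not pass. The E-box CACGTG was in the windows of Ogdh and Pcx and of 8.09% of all genes. A core of the site of nuclear respiratory factor NRF1, TGCGCATGC, was in those of Ogdh and Glud1 and of 1.72% of all genes. The element of the estrogen-related receptors, TCAAGGTCA, was in the window of 0 of 26 enzymes and of 0.466% of all genes. In the printed windows the capitals mark 2 antioxidant response cores in Idh3g, the E-box and then the NRF1 core in Ogdh, and 1 antioxidant response core each in Dlst and in G6pdx, where it is on the other strand, and none of these overlap. A match describes these letters only, and no match says only that they are not in the window.

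Cs and Aco1 rose. Cs, the entry enzyme of the cycle, which joins acetyl-CoA to oxaloacetate, was at 197, 212, 207 and 205 CPM with vehicle and at 294, 295, 285 and 291 CPM with melatonin. The lowest melatonin library was far above the highest vehicle library, and the log2 fold change was 0.50 ± 0.054 (edgeR adjusted p = 7.3e-05). Aco1 encodes the cytosolic aconitase, which doubles as an iron-regulatory RNA-binding protein. It was at 69.0, 72.6, 75.0 and 74.4 CPM with vehicle and 117, 107, 121 and 101 CPM with melatonin, without overlap (log2 fold change 0.62 ± 0.072). Cs lies on chromosome 10 (128337734 to 128362479, plus strand, GRCm38).

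Idh2, Idh3a and Idh1, all isocitrate dehydrogenase genes, had the 3 largest log2 fold changes of the 28. Idh2, the NADP-dependent mitochondrial enzyme (chromosome 7, 80094846 to 80115392, minus strand), was at 33.0, 29.5, 31.1 and 31.0 CPM with vehicle and 59.9, 45.3, 49.96 and 54.5 CPM with melatonin. The groups lay well apart (log2 fold change 0.75 ± 0.091, edgeR adjusted p = 1.6e-04). The cytosolic and peroxisomal counterpart Idh1 (chromosome 1, 65158616 to 65186500, minus strand) was at 159, 161, 165 and 169 CPM and 246, 239, 262 and 294 CPM, again without overlap (log2 fold change 0.67 ± 0.074). The ratio of Idh1 to Idh2 counts within a library did not pass a test of the difference between groups (change of -0.08 in log2 ratio, exact permutation test, two-sided, p = 0.486). For this pair and the ratios given below, 8 pairs were tested, and adjusted p-values are over these 8.

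Of the 3 subunits of the NAD-dependent isocitrate dehydrogenase, 2 rose, and these changed unequally. With library totals as the scaling the third, Idh3b, passed as higher too (0.32, adjusted p = 0.00248). Idh3a, the catalytic subunit (chromosome 9, 54586334 to 54604661, plus strand), was at 40.5, 41.9, 38.8 and 38.3 CPM with vehicle and 65.4, 63.6, 65.6 and 65.3 CPM with melatonin. The libraries within each group were close together, and its adjusted p of 1.6e-05 (edgeR, log2 fold change 0.71 ± 0.059) was the smallest of the 28. Idh3g, a regulatory subunit, went from 56.3 ± 1.75 to 73.3 ± 5.96 CPM (log2 fold change 0.38 ± 0.071). Idh3b, the other regulatory subunit, had 84.7, 100.2, 93.5 and 91.8 CPM and 102, 102, 101 and 112 CPM and did not pass (log2 fold change 0.17 ± 0.068, edgeR adjusted p = 0.084, 95% interval 0.01 to 0.32). The ratio of Idh3a to Idh3g within each library was higher in 4 of 4 melatonin libraries than in any vehicle library. It changed by 0.33 in log2 (exact permutation p = 0.0286, the smallest that 4 against 4 allows, adjusted p = 0.0457). Per kilobase of exon, Idh3a stayed the lowest of the 3 subunits, at 7.86 CPM per kb with vehicle and 12.8 with melatonin, while Idh3g was at 20.9 and 27.1 and Idh3b at 27.1 and 30.4.

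**Figure D1:**
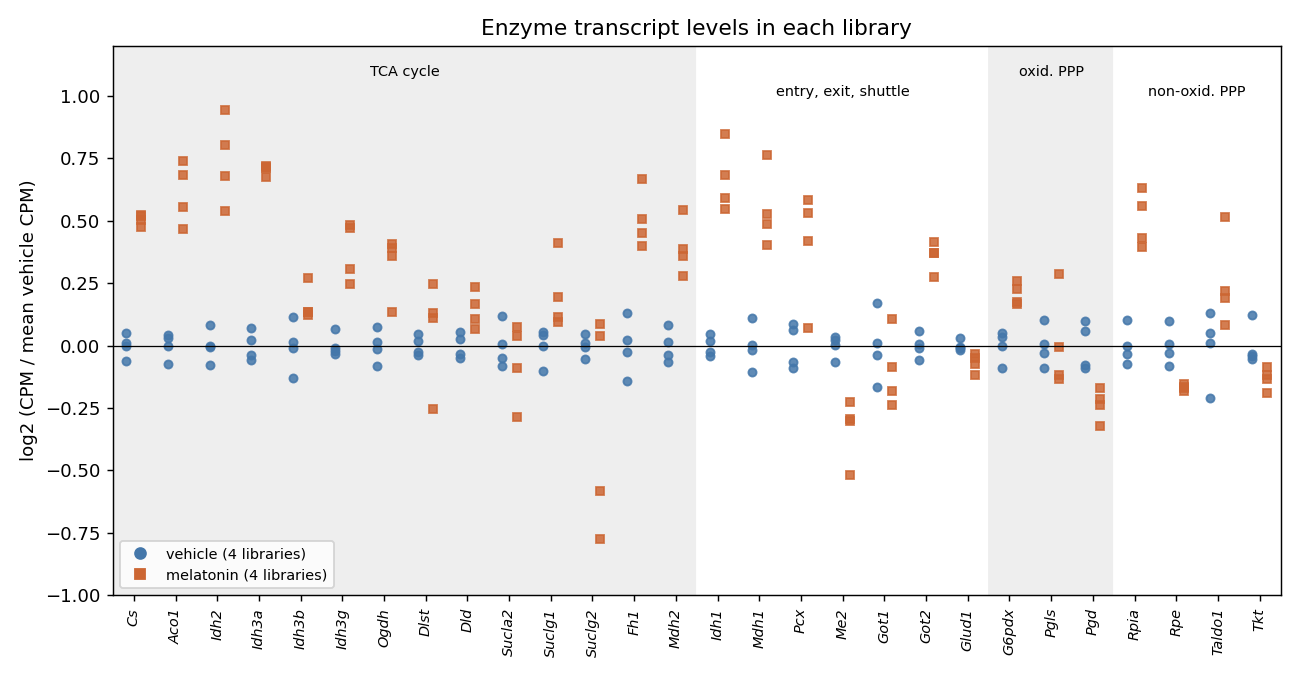
Level of each enzyme transcript in each library, as log2 of CPM over the vehicle mean of that gene (y axis), with genes grouped by role (x axis; PPP is the pentose phosphate pathway). Circles are the 4 vehicle libraries and squares the 4 melatonin libraries; the melatonin squares of Cs, Idh2, Idh3a and Idh1 all lie above their vehicle circles, and those of Suclg2 fall into a higher and a lower pair.

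The 2-oxoglutarate dehydrogenase complex, which turns 2-oxoglutarate into succinyl-CoA, changed in 1 of its 3 components. Ogdh, the first component, was at 186, 178, 198 and 189.6 CPM and 246, 249, 241 and 206 CPM, with melatonin replicate 4 nearest to vehicle (log2 fold change 0.33 ± 0.074, edgeR adjusted p = 0.0066). Dlst, the succinyltransferase core, had 52.1, 51.7, 54.8 and 53.8 CPM and 58.1, 57.3, 62.9 and 44.6 CPM. The groups overlapped through melatonin replicate 4, which was below every vehicle library, and Dlst did not pass (log2 fold change 0.07 ± 0.099, edgeR adjusted p = 0.62). Without that library it passed as higher (0.17, adjusted p = 0.0395). Dld, the dihydrolipoyl dehydrogenase shared with the pyruvate dehydrogenase complex, went from 51.7 ± 1.75 to 57.2 ± 2.97 CPM and did not pass (adjusted p = 0.10, 95% interval of the log2 fold change 0.004 to 0.29), but passed as higher with library totals as the scaling (0.30, adjusted p = 0.00682).

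Succinyl-CoA ligase, the step that makes GTP or ATP directly, did not pass in any of its 3 subunits with TMM scaling. With library totals as the scaling Suclg1 passed as higher (0.37, adjusted p = 0.00355). Suclg1, the shared alpha subunit, was at 59.0, 65.6, 65.2 and 63.3 CPM with vehicle and 67.5, 72.5, 68.5 and 84.2 CPM with melatonin (log2 fold change 0.21 ± 0.082, edgeR adjusted p = 0.072). Sucla2, the ATP-specific beta subunit, went from 37.0 ± 2.26 to 35.5 ± 3.90 CPM with overlapping groups (95% interval of the log2 fold change -0.26 to 0.14). Suclg2, the GTP-specific beta subunit, was even with vehicle, at 39.0, 40.4, 41.9 and 40.8 CPM. With melatonin it was 41.6, 43.0, 23.7 and 27.1 CPM. Melatonin replicates 1 and 2 were thus near the vehicle level, and replicates 3 and 4 were lower than every other library. Its log2 fold change was -0.26 ± 0.18 (edgeR adjusted p = 0.30, 95% interval -0.67 to 0.15), and the ratio of Suclg2 to Sucla2 also overlapped between groups (exact permutation p = 0.429).

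**Figure D2:**
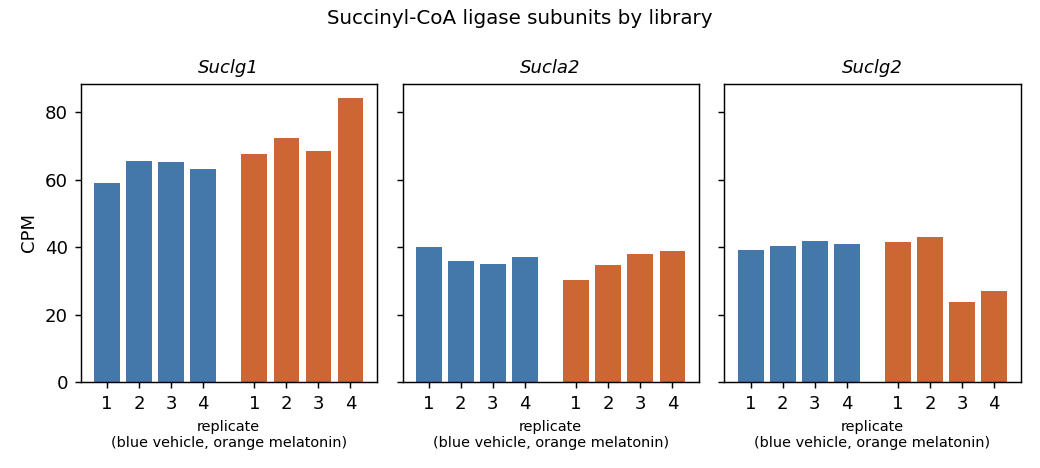
CPM of the 3 succinyl-CoA ligase subunit genes (y axis, from 0) in each library (x axis, replicates 1 to 4, blue vehicle and orange melatonin). Suclg2 is at 39.0 to 41.9 CPM in all vehicle libraries and at 23.7 and 27.1 CPM in melatonin replicates 3 and 4, where Sucla2 and Suclg1 show no such drop.

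The last steps of the cycle rose. Fh1, fumarase (chromosome 1, 175600374 to 175625635, minus strand), was at 49.7, 60.02, 55.7 and 53.8 CPM with vehicle and 77.8, 72.3, 74.8 and 87.0 CPM with melatonin (log2 fold change 0.51 ± 0.082, edgeR adjusted p = 9.3e-04). Mdh2, which regenerates oxaloacetate (chromosome 5, 135778480 to 135790398, plus strand), was at 228, 248, 237 and 224 CPM and 301, 306, 284 and 342 CPM (log2 fold change 0.39 ± 0.071, edgeR adjusted p = 0.0018). In both genes every melatonin library was above every vehicle library. Per kilobase of exon Mdh2 was the highest of the 14 cycle genes in both groups, at 65.9 and 86.6 CPM per kb, and Dlst the lowest, at 5.55 and 5.83. Exon lengths are the union over all annotated transcripts, so levels per kb are low for genes with long rare exons. The 14 cycle genes, cytosolic Aco1 included, summed to 1187 to 1246 CPM with vehicle and 1544 to 1588 CPM with melatonin. Their median log2 fold change was 0.35.

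Of 7 enzymes around the cycle, 4 rose and 1 fell, while 36.5% of all tested genes passed, 18.1% as higher and 18.5% as lower. Pcx, pyruvate carboxylase, makes oxaloacetate from pyruvate and so refills the cycle. It was at 168, 171, 189.8 and 187 CPM with vehicle and 259, 239, 268 and 188 CPM with melatonin, where replicate 4 lay among the vehicle values (log2 fold change 0.41 ± 0.11, edgeR adjusted p = 0.013). Me2, the mitochondrial malic enzyme, which turns malate into pyruvate, ran the other way. It was at 33.1, 33.4, 31.1 and 32.6 CPM and 22.7, 26.4, 26.5 and 27.8 CPM, lower in 4 of 4 melatonin libraries (log2 fold change -0.33 ± 0.078, edgeR adjusted p = 0.0081). With library totals as the scaling Me2 did not pass (-0.17, adjusted p = 0.119). Glud1, glutamate dehydrogenase, which links glutamate to 2-oxoglutarate, was nearly level, at 199, 199, 205 and 198 CPM and 193, 184, 190.1 and 195 CPM (95% interval of the log2 fold change -0.19 to 0.05).

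The malate-aspartate shuttle, which carries NADH equivalents into mitochondria, uses a cytosolic and a mitochondrial form of 2 enzymes. Cytosolic Mdh1 (chromosome 11, 21556787 to 21572367, minus strand) was at 133, 155, 144 and 142 CPM and 189.6, 206, 201 and 243 CPM and rose by 0.55 ± 0.086 in log2. The ratio of Mdh1 to Mdh2 changed by 0.15 in log2 with overlapping groups and did not pass (exact permutation p = 0.0571, adjusted p = 0.0762), but passed without melatonin replicate 1 (0.19, exact adjusted p = 0.0381). For the aspartate aminotransferases the forms differed. Mitochondrial Got2 was at 182, 197, 188 and 190.2 CPM and 244, 244, 229 and 252 CPM and rose (log2 fold change 0.36 ± 0.058, edgeR adjusted p = 9.7e-04). Cytosolic Got1 was at 38.8, 43.8, 49.0 and 42.4 CPM and 41.0, 38.4, 36.9 and 46.8 CPM, with overlapping groups (log2 fold change -0.09 ± 0.097, edgeR adjusted p = 0.50). The ratio of Got1 to Got2 was lower in every melatonin library than in any vehicle library and changed by -0.45 in log2 (exact permutation p = 0.0286, adjusted p = 0.0457).

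**Figure D3:**
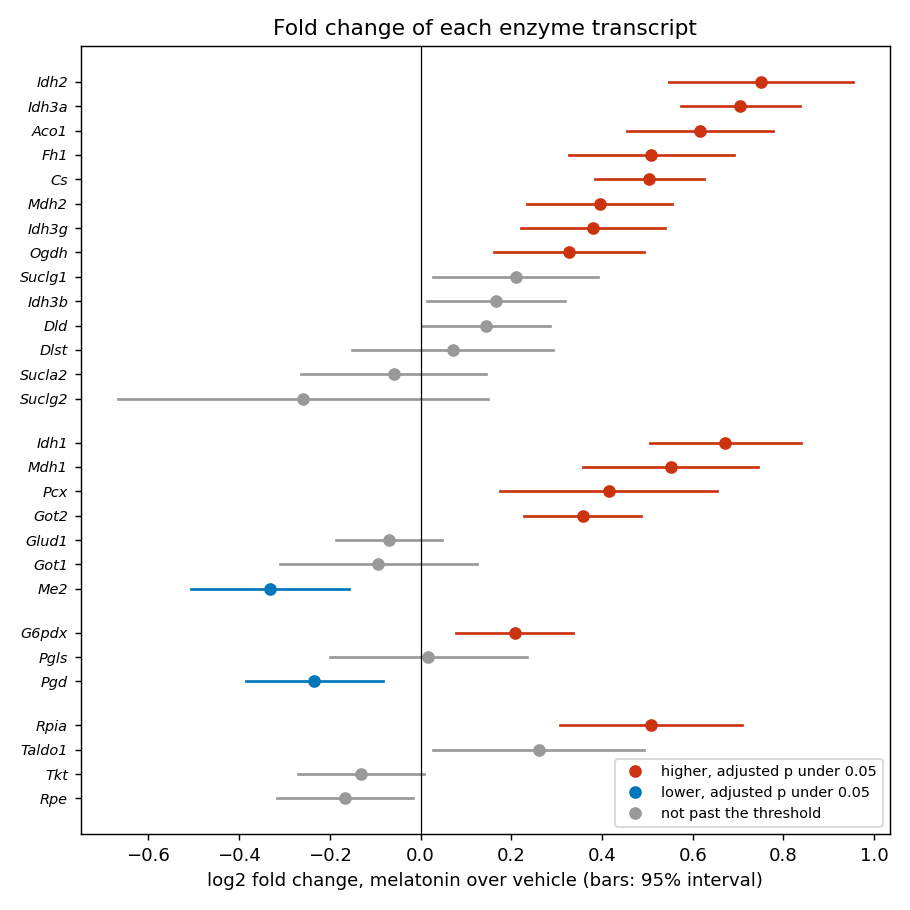
Log2 fold change of melatonin over vehicle for the 28 enzymes (x axis), from the edgeR fit, with bars for the 95% interval, in 4 blocks by role from top to bottom (TCA cycle, entry, exit and shuttle enzymes, oxidative and non-oxidative pentose phosphate pathway). Colours mark genes that passed as higher (14) or lower (2) at an adjusted p under 0.05 and the 12 that did not pass; the largest value is that of Idh2 (0.75).

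Of 7 pentose phosphate enzymes, 2 rose, 1 fell and 4 did not pass, while 36.5% of all tested genes passed. The median log2 fold change of the 7 enzymes was 0.02. With library totals as the scaling 3 rose (G6pdx, Rpia and Taldo1) and 0 fell. They summed to 1130 to 1269 CPM with vehicle and 1085 to 1210 CPM with melatonin, which overlap. In the oxidative branch the dehydrogenases at its start and its end passed in opposite directions. Neither call held in every alternative fit. G6pdx, glucose 6-phosphate dehydrogenase, which sets the flow into the branch (chromosome X, 74409483 to 74429194, minus strand), was at 165, 175, 181 and 179 CPM with vehicle and 209.5, 205, 197 and 198 CPM with melatonin. It rose in 4 of 4 libraries by 0.21 ± 0.058 in log2 (edgeR adjusted p = 0.018), and lost the call without vehicle replicate 1 (0.18, adjusted p = 0.0532). Pgls, the lactonase that follows, went from 78.8 ± 4.46 to 79.8 ± 11.3 CPM with no difference past the test (95% interval -0.20 to 0.24).

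Pgd, phosphogluconate dehydrogenase, the second NADPH-making step (chromosome 4, 149149991 to 149166771, minus strand), was at 426, 482, 469 and 423 CPM with vehicle and 382, 389, 360.4 and 400.02 CPM with melatonin. It was lower in 4 of 4 melatonin libraries (log2 fold change -0.23 ± 0.067, edgeR adjusted p = 0.021). That call was lost without vehicle replicate 2 (-0.20), vehicle replicate 3 (-0.21), melatonin replicate 1 (-0.22) or melatonin replicate 3 (-0.19), at adjusted p of 0.0603 to 0.0636, and with library totals as the scaling (-0.077, adjusted p = 0.327). The ratio of Pgd to G6pdx within each library does not depend on scaling. It was 1.24 to 1.46 in log2 counts with vehicle and 0.87 to 1.02 with melatonin, without overlap, a change of -0.44 (exact permutation p = 0.0286, adjusted p = 0.0457). Against the first enzyme of the cycle, the ratio of G6pdx to Cs went down by 0.30 in log2, also without overlap (same exact p and adjusted p). Without vehicle replicate 4, these ratios and the other 3 that passed were no longer called, with their directions as before. Adjusted p was 0.0762 for Idh3a to Idh3g and 0.0571 for the others. With so few libraries, adjusted p depends on how many of the 8 pairs reach the smallest exact p. The calls lost at 0.0571 thus do not by themselves show that those ratios rest on that library. The ratios show that the 2 transcripts of a pair changed unequally, not which of them changed.

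In the non-oxidative branch 1 of 4 enzymes passed, beside 36.5% of all tested genes. Rpia, ribose 5-phosphate isomerase, was at 9.78, 9.51, 9.996 and 10.7 CPM and 15.5, 13.5, 13.1 and 14.8 CPM and rose (log2 fold change 0.51 ± 0.090, edgeR adjusted p = 0.0016). It was the scarcest of the 28 per kilobase of exon, at 1.87 and 2.65 CPM per kb. Rpe, the epimerase that acts on the same ribulose phosphate, was at 28.1, 27.1, 30.8 and 28.9 CPM and 25.5, 25.8, 25.3 and 25.6 CPM. Every melatonin library was below every vehicle library with TMM scaling. The difference did not pass with edgeR (log2 fold change -0.17 ± 0.067, adjusted p = 0.078) and did with DESeq2 (-0.18, adjusted p = 0.0421). Scaled by library totals, Rpe had a log2 fold change of -0.009 (edgeR adjusted p = 0.927).

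Taldo1 and Tkt, transaldolase and transketolase, shuffle carbon units between sugar phosphates. Taldo1 was at 111, 139.98, 132 and 129 CPM with vehicle and 149, 146, 135 and 183 CPM with melatonin and did not pass (log2 fold change 0.26 ± 0.10, edgeR adjusted p = 0.079). Without melatonin replicate 3 it passed as higher (0.33, adjusted p = 0.0376). Tkt was at 313, 350.1, 309.95 and 314 CPM and 297, 303, 282 and 293 CPM, lower in every melatonin library, and did not pass (log2 fold change -0.13 ± 0.062, edgeR adjusted p = 0.13). Its sign changed with library totals as the scaling (0.025, edgeR adjusted p = 0.771). The ratio of Taldo1 to Tkt was higher in 4 of 4 melatonin libraries and changed by 0.39 in log2 (exact permutation p = 0.0286, adjusted p = 0.0457).

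**Figure D4:**
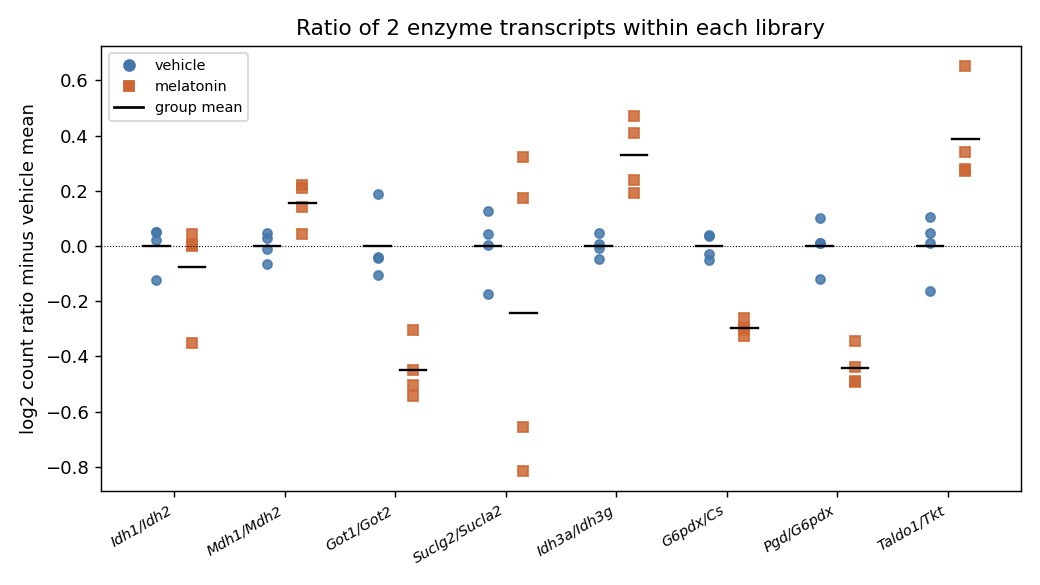
Log2 ratio of the counts of 2 enzymes within each library, minus the vehicle mean of that ratio (y axis), for 8 pairs (x axis). Circles are vehicle libraries, squares melatonin libraries and lines group means; the groups do not overlap for Got1/Got2, Idh3a/Idh3g, G6pdx/Cs, Pgd/G6pdx and Taldo1/Tkt.

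Per kilobase of exon, Pgd stood first with vehicle (69.8 ± 4.64 CPM per kb), followed by Mdh2 (65.9 ± 3.01). With melatonin Idh1 stood first (93.9 ± 8.92), followed by Mdh2 (86.6 ± 6.76) and Mdh1 (81.8 ± 9.03). These neighbours in the order were within about 1 SD of each other. Rpia, Me2 and Dlst were the 3 lowest in both groups. Some transcripts share exon bases with a neighbour, and since the use of strand is not given, reads there cannot be assigned to one of them. G6pdx shares 418 bases with Ikbkg on the other strand, which fell from 56.6 to 36.4 CPM. Rpe shares 558 bases with Kansl1l, which rose from 8.73 to 12.7 CPM, and Got2 shares 434 bases with Gm45760 (0.441 and 0.393 CPM). Pgls shares 776 bases with Fam129c on its own strand (1.90 and 2.03 CPM), Mdh1 shares 52 with Wdpcp and Idh3b 5 with Nop56.

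Other genes of the same pathways were read as fixed lists. Beside the counts of these lists, 36.5% of all tested genes passed, 18.1% as higher and 18.5% as lower. The list of 6 further genes, 4 for succinate dehydrogenase of the cycle and 2 for relatives of Ogdh, rose throughout (6 of 6, median log2 fold change 0.40). Ogdhl, a paralog of Ogdh, went from 40.7 ± 2.38 to 67.1 ± 2.95 CPM and Dhtkd1, a related oxoacid dehydrogenase of lysine breakdown and no enzyme of the cycle, from 4.20 ± 0.854 to 8.91 ± 1.61 CPM. The other 4 of that list, Sdha, Sdhb, Sdhc and Sdhd, named after their values were seen, encode succinate dehydrogenase and rose by 0.24 to 0.46 in log2. Of the pyruvate dehydrogenase complex, which brings pyruvate carbon into the cycle as acetyl-CoA, 1 of 4 genes rose. Pdhb, the beta subunit of its first component, went from 54.8 ± 3.04 to 82.2 ± 5.496 CPM (edgeR adjusted p = 1.6e-04), while Pdha1 (0.15), Dlat (0.13) and Pdhx (0.14) did not pass.

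The kinases that switch that complex off, and the phosphatases that switch it on, changed in 5 of 7 genes, with 3 higher and 2 lower. The kinase gene Pdk1 was at 149, 139.8, 131 and 137 CPM with vehicle and 42.9, 47.9, 50.7 and 50.9 CPM with melatonin, and the kinase gene Pdk3 went from 45.4 ± 2.31 to 33.6 ± 4.02 CPM. Both fell (-1.53 and -0.44 in log2), with edgeR adjusted p of 7.5e-07 and 0.0041. The kinases did not all go one way, since Pdk2 rose by 0.37 ± 0.091 in log2 (edgeR adjusted p = 0.010) and Pdk4 did not pass (-0.19). Of the phosphatase genes, Pdp1 rose by 0.38 ± 0.084 and Pdp2 by 0.29 ± 0.10, while the regulatory subunit gene Pdpr did not pass (0.11). Pdk2, Pdk4, Pdp2 and Pdpr were named after their values were seen.

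Of 9 tested mitochondrial carriers of cycle intermediates and their relatives, 4 rose and 1 fell. Slc25a10, the dicarboxylate carrier, was at 30.2, 37.2, 35.3 and 36.2 CPM and 84.3, 80.7, 86.0 and 74.8 CPM, and Mpc2, a subunit of the pyruvate carrier, at 32.9, 41.8, 43.2 and 42.2 CPM and 80.5, 70.7, 79.6 and 87.7 CPM. Both were higher in every melatonin library than in any vehicle library (log2 fold changes 1.23 ± 0.083 and 0.99 ± 0.10), while the partner subunit Mpc1 did not pass (0.01, chosen after its value was seen). Slc25a18, a glutamate carrier, fell from 2.81 ± 0.906 to 0.210 ± 0.195 CPM, which rests on 104 to 186 counts per vehicle library and 3 to 21 per melatonin library. In the list of other anaplerotic, malic and aminotransferase enzymes 4 of 10 rose and 2 fell. The alanine aminotransferase genes went in opposite directions. Gpt rose by 0.64 ± 0.13 and Gpt2 went from 37.4 ± 3.02 to 27.9 ± 0.506 CPM (log2 fold change -0.42 ± 0.073). Glutamine synthetase, Glul, rose by 0.35 ± 0.072, and the cytosolic malic enzyme Me1 was lower (-0.21 ± 0.055), in the same direction as Me2. The other mitochondrial malic enzyme, Me3, named after its value was seen, rose by 0.70 ± 0.21 (edgeR adjusted p = 0.026).

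Of 9 tested further pentose and ribose phosphate genes, 5 rose and 2 fell. H6pd encodes the hexose phosphate dehydrogenase of the endoplasmic reticulum, which makes NADPH there by the same reactions as the start of the cytosolic branch. It was at 488, 507, 504 and 526 CPM with vehicle and 339.9, 353, 344 and 285 CPM with melatonin and fell (log2 fold change -0.62 ± 0.076, edgeR adjusted p = 1.8e-04), opposite to G6pdx. The phosphoribosyl pyrophosphate synthetases, which use the ribose phosphate that Rpia makes, rose. Prps2 went from 32.9 ± 1.45 to 57.3 ± 4.86 CPM and Prps1 from 13.8 ± 1.01 to 19.5 ± 2.56 CPM. Prpsap1, a regulatory partner of theirs, was lower (-0.28 ± 0.067), and the other such partner, Prpsap2, named after its value was seen, rose by 0.58 ± 0.13 (edgeR adjusted p = 0.0052).

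**Figure D5:**
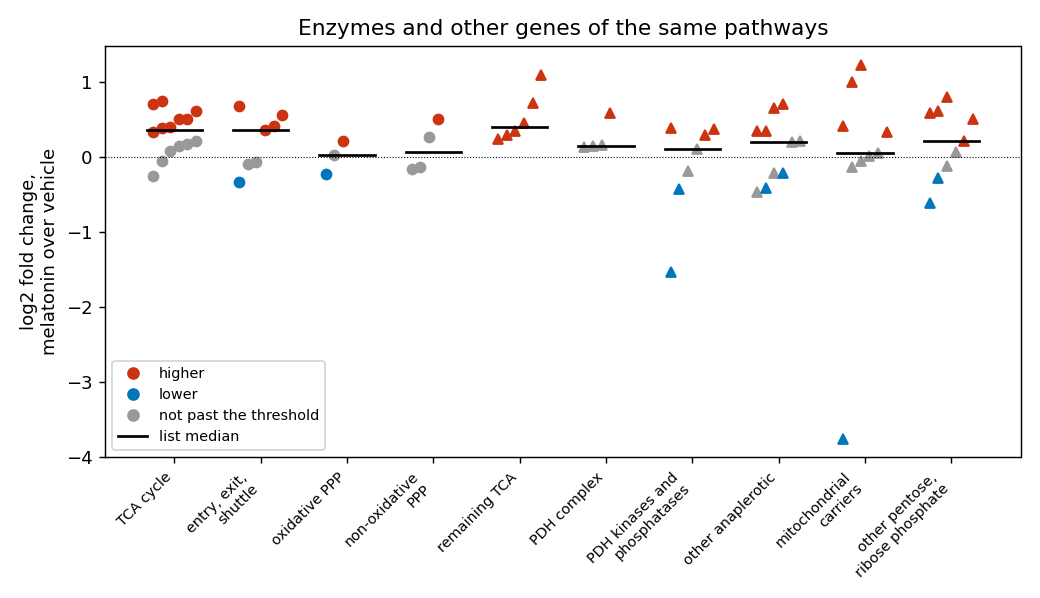
Log2 fold change of melatonin over vehicle (y axis) for the 28 enzymes (circles, 4 groups at the left) and for other genes of the same pathways (triangles, 6 lists), 1 point per tested gene, with black lines at list medians. Colours mark genes that passed as higher or lower; the lowest point is Slc25a18 (-3.76) and the next lowest is Pdk1 (-1.53).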

How the data were processed

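RNA sequencing counts were read from 8 libraries of FAPs, 4 with vehicle and 4 with melatonin. The authors deposited raw counts per Ensembl gene, and columns with a control prefix were read as vehicle. Per the submitters' processing notes, the build was mm10 and the tools included StringTie 1.3.3b, HISAT2 2.0, Trimmomatic 0.36, bedtools 2.26.0, FastQC 0.11.2, DESeq2 1.12.4. The sources used here do not name the counting program, its annotation release or its strand setting. Symbols and positions came from GENCODE M21 on GRCm38 (20720 of 20781 IDs matched) and promoter windows from RefSeq on GRCm38.p6.

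Genes were filtered with filterByExpr, scaled by TMM (factors 0.916 to 1.08) and tested with edgeR 4.0.16 (robust quasi-likelihood F-test, group as the only term, Benjamini-Hochberg over 16565 genes, threshold 0.05). The procedure was tested on simulated data with 50 changed genes at each fold. It recovered 0% of them at 1.25-fold, 34% at 1.5-fold, 56% at 2-fold and 84% at 3-fold. Far fewer genes were changed there than passed here. The changed genes were drawn at random from all tested genes, at any level, while the lowest enzyme count in a library was 411. These shares thus need not hold for these data or for these enzymes. An enzyme that did not pass is not shown to be unchanged. The standard error is the log2 fold change divided by the square root of F, and 95% intervals use the test's degrees of freedom. Ratios of 2 genes used log2 counts with 0.5 added to each, and an exact two-sided permutation test over libraries. Alternatives were library totals, RLE factors, limma-voom (limma 3.58.1), DESeq2 1.42.0, 2 other filters, a stricter threshold, the replicate block and leaving out each library. The enzymes and gene lists were chosen with earlier results of these data known. Of the related lists, 1 gene is not reported here. All 28 enzymes are named. From each related list of 6 or fewer, all genes were named. From longer ones, the 3 with the smallest p and those that passed against most of their list were named. Outside this rule, Pdk2, Pdk4, Pdp2, Pdpr, Mpc1, Me3 and Prpsap2 were named after their values were seen.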

Additional observations from a re-analysis of the deposited data

Results flagged for a closer look

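In 2 of 56 sets of 4 libraries (28 enzymes in 2 groups), 1 library stood apart from the other 3 by Dixon's test at its 95% critical value, where chance gives about 1 in 20. Idh3b was at 112 CPM in melatonin replicate 4 and at 101 to 102 CPM in the other melatonin libraries. Tkt was at 350.1 CPM in vehicle replicate 2 and at 310.0 to 314 CPM in the other vehicle libraries.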

How the results depend on the processing

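All 16 enzymes that passed did so in the same direction with DESeq2, limma-voom, RLE factors and both other filters. With library totals 0 enzymes passed as lower, and with an adjusted p under 0.01 there was 1, among 3865 genes in all against 6054. Same-numbered libraries did not deviate together (correlations -0.071 to 0.038, and 0 of 4 vehicle libraries matched best with their own number). With the replicate block 2293 genes passed as higher and 2649 as lower, and of the enzymes 13 passed as higher and 1 as lower, since G6pdx (0.21, adjusted p = 0.0821) and Pgd (-0.23, adjusted p = 0.0747) lost the call. Leaving out each library gave 13 to 15 higher and 1 to 2 lower. The calls lost were those of G6pdx (without vehicle replicate 1) and Pgd (without vehicle replicate 2 or 3, or melatonin replicate 1 or 3). Of 420 refitted fold changes of the 28 enzymes, 397 kept direction and side of the threshold. The sign changed for 5 enzymes that had not passed. With library totals these were Sucla2 (0.097), Got1 (0.066), Glud1 (0.088) and Tkt (0.025). Leaving out each library gave -0.076 to 0.079 for Pgls, -0.098 to 0.022 for Sucla2 and -0.12 to 0.016 for the Idh1 to Idh2 ratio, with changed sign without vehicle replicate 4 or melatonin replicate 4 (Pgls) and without melatonin replicate 1 (the others). An offset of 1 changed no call of the 8 ratios. Paired differences of 4 numbers cannot go below an exact p of 0.125, so that design says nothing about the ratios. For the 5 ratios that passed, leaving out each library gave adjusted p of 0.0381 to 0.0762, above 0.05 only without vehicle replicate 4. The lowest count of any enzyme in a library was 411.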
